A study of Mus musculus with 24 samples.

Results

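The genes described here carry cells through DNA replication and division. A list of 34 mouse genes was taken by symbol and split by role into replication licensing, DNA synthesis, regulators of the step from G1 to S phase, and genes of G2 and mitosis. Of these, 29 were read from the arrays, among 18820 gene symbols in all: 9 of 9 licensing genes, 3 of 4 DNA synthesis genes, 3 of 4 G1 to S regulators and 14 of 17 genes of G2 and mitosis. Tyms, Ccne2, Ccnb1, Foxm1 and Nusap1 had no probe set under that symbol alone and were not analysed here. Where a gene had several probe sets, the brightest over all arrays stood for it.

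RNA from whole liver of male mice on a C57/BL6 background was measured on 24 arrays, 3 in each of 8 groups. Control mice were JNK1f/f, with Jnk1 alleles that Cre recombinase can delete, and were studied after sham surgery and after bile duct ligation (BDL), at 48 h (8 weeks of age) and at 28 d (12 weeks of age). JNK1-/- mice, a purchased line without Jnk1 in any cell, and JNK1Δhepa mice, in which JNK1f/f was combined with Cre under an albumin promoter that becomes active after birth, were studied after ligation at the same times and ages, without sham groups. Ligation closes the common bile duct and causes cholestatic injury, and sham surgery opens and closes the abdomen. JNK1Δhepa mice keep Jnk1 in liver cells other than hepatocytes. Age and time after surgery moved together and cannot be told apart.

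Before S phase, the proteins Cdc6 and Cdt1 load the Mcm2 to Mcm7 ring onto replication origins, which licenses each origin to fire once, and the GINS complex later helps to turn the ring into an active helicase. Cyclins D and E and the E2F factors commit a cell to S phase and switch on licensing and DNA synthesis genes. Cyclins A and B, Cdk1, the Aurora and Polo kinases and the spindle checkpoint then drive G2 and mitosis, and their genes are transcribed later in the cycle. Adult liver cells rarely divide, but hepatocytes and bile duct cells enter the cycle after injury.

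Values are log2 intensities per gene, and differences are on the log2 scale with their standard error (SE) from a limma fit over all 24 arrays. A gene is called when its p-value, adjusted by Benjamini and Hochberg over the 18820 symbols, is under 0.05. Counts at an unadjusted p are not corrected for the number of symbols tested. Only for JNK1Δhepa against control at 48 h is such a count also given for all symbols. Mapk8, the symbol of Jnk1, was checked first. It ranged from 5.18 to 6.17 in the JNK1-/- livers and from 7.37 to 7.67 in 3 of the 4 control groups. The arrays labelled control sham 48 h lay at 6.67 to 6.93, close to JNK1Δhepa at 48 h (6.76 to 6.81), so they go against their label for this gene, and 1 array labelled JNK1Δhepa at 28 d (replicate 1) lay at the control level, 7.67. Hepatocyte markers were high on all arrays, with a mean log2 intensity of 12.50 to 12.78 over 9 genes. In whole liver, fewer cells of a type and less RNA per cell cannot be told apart.

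The same few arrays stood apart for most of the 29 genes. In control liver ligated for 48 h, replicate 1 was the highest of the 3 arrays for 28 of 29 genes and replicate 3 the lowest for 27, whereas replicate 1 was highest for 38.3% and replicate 3 lowest for 41.1% of all symbols. In JNK1-/- liver at 48 h, replicate 1 was lowest for 13 of the 14 genes of G2 and mitosis (43.0% of all symbols). In control liver ligated for 28 d, replicate 3 was highest for 22 and replicate 1 lowest for 21 of the 29 genes. The median SD of the 29 genes was 0.461 in control liver ligated for 48 h and 0.509 at 28 d, against 0.119 and 0.187 for all symbols.

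**Figure D1:**
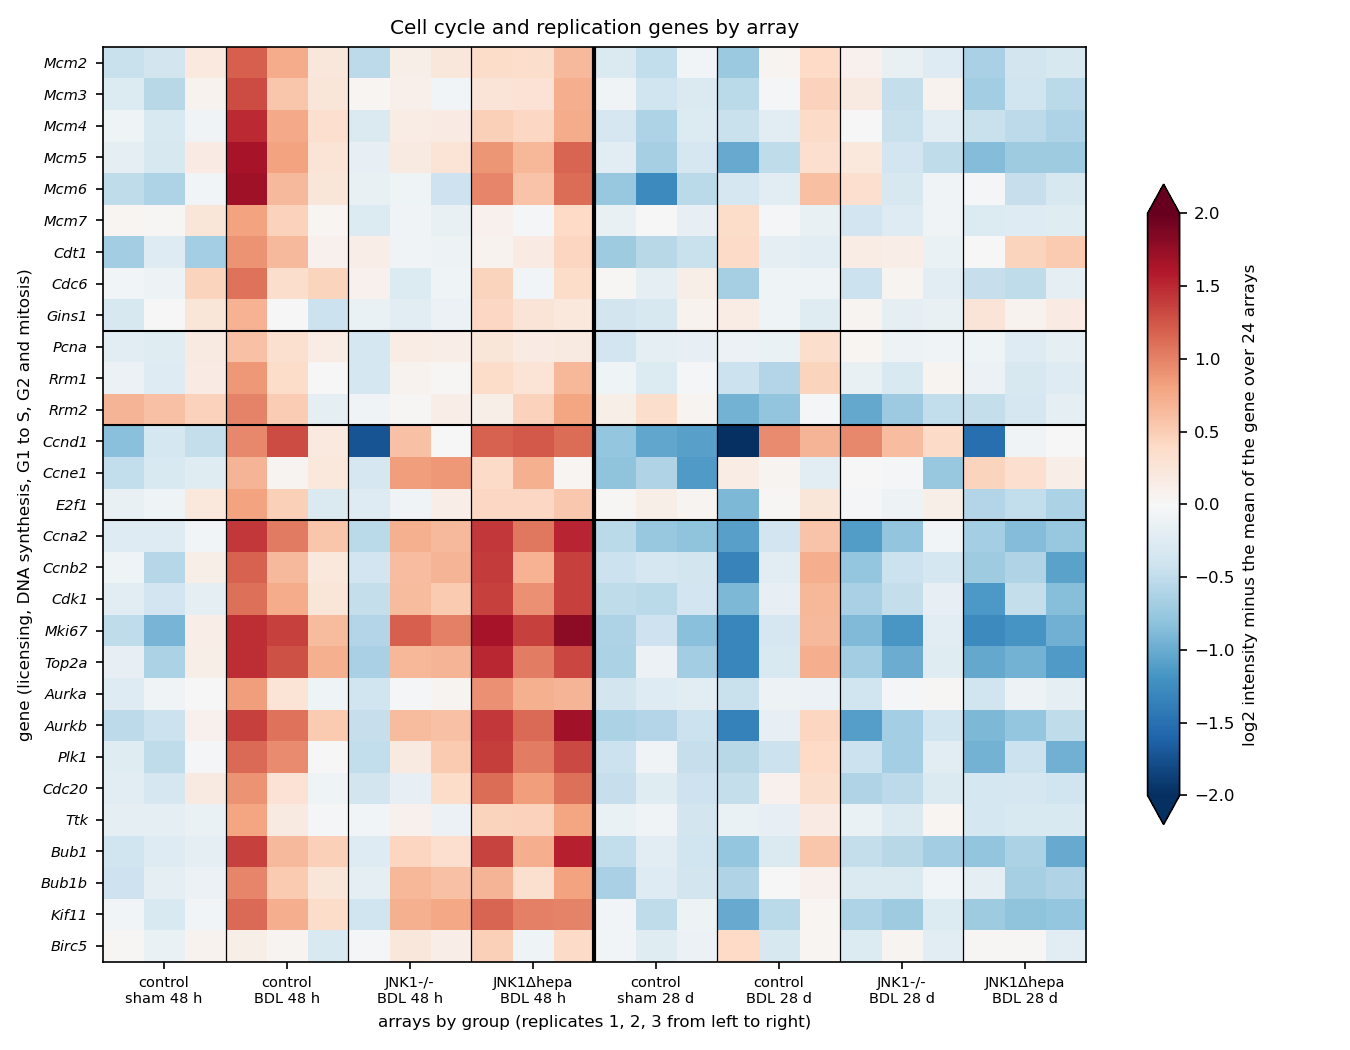
Each row is a gene and each column an array, and the colour gives the log2 intensity minus the mean of that gene over the 24 arrays, with values past 2 in either direction shown at the end of the scale. Black lines separate the 8 groups and the 4 classes of genes. In control liver ligated for 48 h the left array is the highest for 28 of 29 genes, and the 3 JNK1Δhepa arrays at 48 h lie above the gene mean for 13 of the 14 genes of G2 and mitosis.

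Licensing genes rose within 48 h of ligation in control liver. Of the 9, 6 were higher than on the arrays labelled control sham 48 h, namely Mcm2, Mcm3, Mcm4, Mcm5, Mcm6 and Cdt1, by 0.92 to 1.26, with a median difference of 0.95 over the class, and none was lower. Among all symbols, 5.61% were called higher and 3.83% lower in this comparison, and the median difference was -0.03. Replicates 1, 2 and 3 of the ligated livers had 7.70, 6.65 and 6.24 for Mcm6 (probe set 10357436), a subunit of the helicase ring, against 5.48, 5.38 and 5.95 on the sham arrays. Every ligated array lay above every sham array. The difference was 1.26 (SE 0.31), or 2.4-fold, with a limma adjusted p of 0.012.

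Cdt1 (probe set 10576140), which loads the ring together with Cdc6, had the smallest p of the 29 genes. Its ligated arrays stood at 6.74, 6.48 and 5.92 and its sham arrays at 5.14, 5.57 and 5.15, without overlap, and the difference was 1.09 (SE 0.20, limma adjusted p = 0.001431). Mcm5 had 7.71, 6.87 and 6.34 after ligation against 5.86, 5.74 and 6.22 after sham, a difference of 1.03 (SE 0.30, limma adjusted p = 0.0372). The closest pair of arrays thus differed by less than the spread within the ligated group. Mcm4 (1.01), Mcm3 (0.95) and Mcm2 (0.92) also kept the groups apart. Mcm7 (0.33), Cdc6 (0.53) and the GINS subunit Gins1 (0.11) were not called, and the array values of Gins1 overlapped widely, at 6.70, 6.00 and 5.59 after ligation and 5.69, 6.01 and 6.26 after sham.

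Genes of G2 and mitosis rose in the same comparison. Of the 14, 8 were called higher and none lower, with a median difference of 0.92, close to the 0.95 of the licensing genes. Mki67 (probe set 10568714), a coat protein of mitotic chromosomes used as a marker of dividing cells, had 7.38, 7.27 and 6.54 after ligation and 5.40, 4.97 and 6.04 on the sham arrays. Its difference, the largest of the 29 genes at 1.60 (SE 0.44) or 3.02-fold, had a limma adjusted p of 0.0246. Top2a, the topoisomerase that untangles chromosomes, stood at 6.64, 6.44 and 5.87 against 5.0, 4.53 and 5.28 and differed by 1.38 (SE 0.40).

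The other called genes of this class were Aurkb, a kinase that corrects chromosome attachment (1.28), cyclin A2 gene Ccna2 (1.19), the checkpoint kinase genes Bub1 (1.11) and Bub1b (0.82), Plk1, the Polo kinase (0.96), and Kif11, a spindle motor (0.88). In each of them the 3 ligated arrays lay above the 3 sham arrays. Cdk1, the kinase that starts mitosis, had 7.33, 6.96 and 6.47 against 6.01, 5.85 and 6.04. These groups did not overlap, yet the adjusted p of its difference of 0.95 (SE 0.32) was 0.0628. Birc5, a partner of Aurkb, stood at 4.94, 4.88 and 4.53 against 4.86, 4.70 and 4.90, a difference of -0.04 (SE 0.17). Cdc6, Ttk and Bub1 lie in the dimmest 25% of all symbols by mean level, where arrays respond less to a change in RNA. Top2a and Kif11 had further probe sets, dimmer still at means of 2.71 to 2.88 over all arrays, without a rise of that size. Their differences in this comparison were 0.24 and 0.24 for Top2a and -0.26 for Kif11. Values given for these genes are from the brightest probe set.

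DNA synthesis genes and G1 to S regulators had no called member at 48 h, with 2 of 3 in each class at an unadjusted limma p under 0.05. Pcna, the clamp that holds DNA polymerase, differed by 0.44 (SE 0.15, adjusted p = 0.0735), and its 2 probe sets gave nearly the same value (0.439 and 0.436). Rrm2, the regulated subunit of the enzyme that makes deoxynucleotides, differed by -0.14 (SE 0.25). Ccnd1, the gene of cyclin D1, had 10.10, 10.45 and 9.33 after ligation and 8.30, 8.79 and 8.67 on the sham arrays, which did not overlap. Its difference was 1.38, but its SE of 0.64, set by the spread over all groups, left an adjusted p of 0.197.

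**Figure D2:**
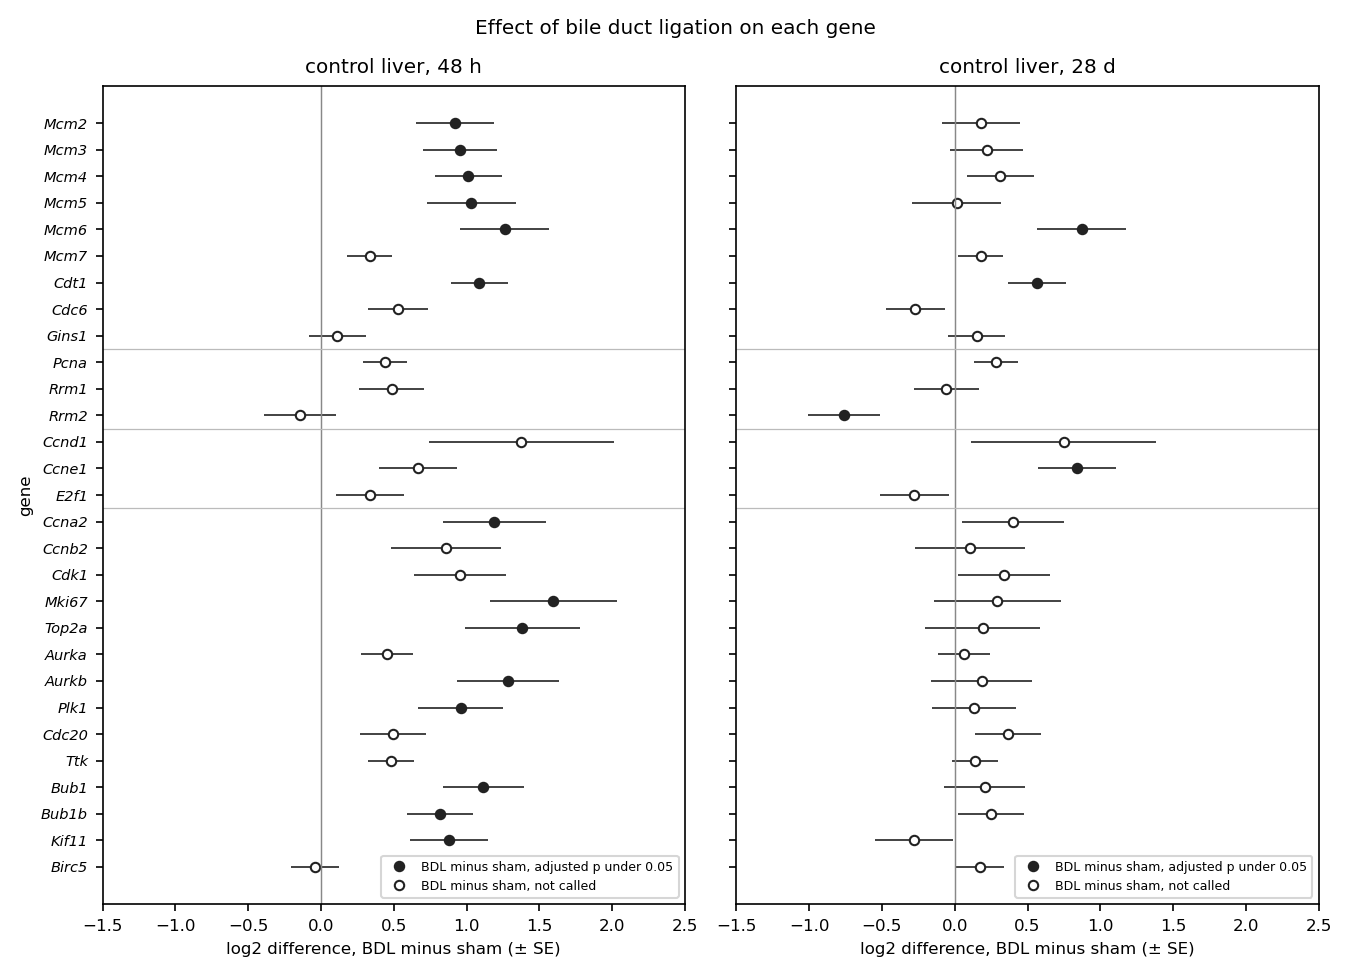
Points give the log2 difference between ligated and sham control liver for each gene at 48 h and at 28 d, and bars its SE, with 3 arrays in each group. Filled points are called at an adjusted p under 0.05. At 48 h 14 genes are filled, all to the right of 0, and at 28 d 4 are filled, 3 to the right and Rrm2 to the left.

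The count at 48 h rested on single arrays. Without ligated replicate 1 it fell from 14 to 2 (Cdt1 and Mcm4), without ligated replicate 2 to 5, and without sham replicate 1 or 2 to 3. With the 28 d sham arrays in place of those labelled control sham 48 h, 22 of the 29 genes were called higher. Among all symbols 1280 were then called higher and 965 lower. Those sham mice were 12 weeks old and the ligated mice 8 weeks, so age and time after surgery enter that difference.

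Further cycle genes were called as follows, beside the 5.61% of all symbols called higher. Among 27 measured genes of the mitotic apparatus 9 rose and none fell, with the smallest p for Anln (1.36) and Incenp (0.69), which act in cytokinesis and with Aurkb. Of 15 further cyclins, CDKs and their regulators 4 rose: Cdc25a, a phosphatase that activates CDKs (1.16), Wee1, the kinase that opposes it (1.86), and the CDK subunits Cks1b (0.90) and Cks2 (0.39). Of 13 E2F and pocket protein genes Rbl1 (1.17) and E2f3 (0.72) rose, and of 19 replication fork genes Rpa2 (0.72) and the ligase Lig1 (0.88) rose. Among 15 partners of origin and helicase 3 rose, and Mcm10, which helps to start the fork, fell by 1.12 (SE 0.26, limma adjusted p = 0.00867). No CDK inhibitor was called, and 1 of 7 had an unadjusted limma p under 0.05.

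Markers of other cells moved with ligation. At 48 h, 5 of 6 neutrophil markers rose (median 1.47), as did 2 of 7 bile duct markers (Krt19 by 2.10 and Sox9 by 1.23) and 2 of 12 macrophage markers. In the ligated control livers the neutrophil markers ran opposite to the cell cycle genes, with mean log2 intensities of 5.34, 6.10 and 7.62 in replicates 1, 2 and 3, against 4.76 to 4.97 on the sham arrays. Bile duct markers did not follow that order (6.14, 5.66 and 6.30). Their part in the differences was not tested.

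The promoters of called genes are shown because licensing and mitotic genes are known to be read from different motifs, E2F sites and the CHR element, with CCAAT boxes near many mitotic CHR elements. Sequences are from RefSeq on assembly GRCm38.p6, the 250 bases before the annotated start, 5′ to 3′ on the strand of the gene. Capitals mark exact matches on either strand. The E2F letters searched were TTCCCGC and its variant TTCGCGC, with TTGCCGC as another and TTGGCGC as the last. The CHR letters were TTTGAA and the variant TTCGAA, and the box was CCAAT. On the strand printed, a CCAAT on the other strand reads ATTGG. The genes are the 3 of each class with the smallest p at 48 h that hold a match in these bases. Mcm6 (chr1:128359706-128359955, minus strand), Mcm3 (chr1:20820313-20820562, minus) and Mcm2 (chr6:88898781-88899030, minus) come from licensing, and Bub1 (chr2:127831860-127832109, minus), Mki67 (chr7:135716380-135716629, minus) and Bub1b (chr2:118597961-118598210, plus) from G2 and mitosis.
Mcm6: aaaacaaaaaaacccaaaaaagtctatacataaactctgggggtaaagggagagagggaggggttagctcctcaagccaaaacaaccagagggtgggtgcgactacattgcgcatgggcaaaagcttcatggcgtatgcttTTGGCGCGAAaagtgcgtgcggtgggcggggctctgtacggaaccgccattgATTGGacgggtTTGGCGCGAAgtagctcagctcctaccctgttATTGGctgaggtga
Mcm3: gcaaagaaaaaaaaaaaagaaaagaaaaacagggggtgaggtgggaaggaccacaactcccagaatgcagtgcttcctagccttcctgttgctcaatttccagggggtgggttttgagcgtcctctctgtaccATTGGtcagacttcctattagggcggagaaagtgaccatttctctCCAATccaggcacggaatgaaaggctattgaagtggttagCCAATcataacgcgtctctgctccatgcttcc
Mcm2: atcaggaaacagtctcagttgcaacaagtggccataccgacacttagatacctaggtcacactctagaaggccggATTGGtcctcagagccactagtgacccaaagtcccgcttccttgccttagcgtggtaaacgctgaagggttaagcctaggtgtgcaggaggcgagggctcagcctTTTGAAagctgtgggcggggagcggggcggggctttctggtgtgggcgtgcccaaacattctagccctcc
Bub1: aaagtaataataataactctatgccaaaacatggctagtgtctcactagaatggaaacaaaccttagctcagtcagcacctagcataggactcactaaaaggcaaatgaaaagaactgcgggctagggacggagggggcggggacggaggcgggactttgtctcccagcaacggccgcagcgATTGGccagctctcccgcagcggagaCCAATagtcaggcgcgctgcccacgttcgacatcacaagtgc
Mki67: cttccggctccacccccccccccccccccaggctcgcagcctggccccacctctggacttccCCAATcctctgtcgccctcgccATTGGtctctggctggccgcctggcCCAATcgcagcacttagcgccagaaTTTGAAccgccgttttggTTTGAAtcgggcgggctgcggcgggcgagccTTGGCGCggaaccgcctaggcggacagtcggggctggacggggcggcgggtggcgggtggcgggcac
Bub1b: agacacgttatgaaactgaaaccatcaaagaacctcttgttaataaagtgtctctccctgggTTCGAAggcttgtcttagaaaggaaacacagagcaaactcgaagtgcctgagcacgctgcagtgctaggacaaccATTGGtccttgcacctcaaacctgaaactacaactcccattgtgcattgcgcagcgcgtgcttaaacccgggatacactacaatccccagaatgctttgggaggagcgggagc
Mcm6 held 2 blocks of overlapping E2F letters, at positions -109 and -46 relative to the start, CCAAT boxes at -57 and -14, and no CHR letters. In Mcm3 the E2F letters fell after the start, at positions 20 to 43, outside the bases printed. Mcm2, also a licensing gene, held no E2F letters, but CHR letters at -70 and a CCAAT box at -175. Mki67 held CHR letters at -116 and -98 with 3 CCAAT boxes further from the start and E2F letters at -67, and the CHR letters of Bub1 lay after the start.

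Windows of 250 bases before to 50 after the start were at hand for 27 of the 34 genes, 7 in licensing and 14 in G2 and mitosis, and not for Mcm4, Gins1, Ccnd1, Ccne2, Ccna2, Aurkb and Foxm1. E2F letters occurred in 6 of 7 licensing genes and 3 of 14 genes of G2 and mitosis, against 10.9% of 27025 mouse genes with a window. CHR letters occurred in 2 of 7 and 11 of 14, against 21.7% of all genes, and CCAAT in 5 of 7 and 12 of 14, against 41.1%. These counts describe letters in short windows, and a match is not a bound site.

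At 28 d after ligation none of the 14 mitotic genes was called against sham and none had an unadjusted limma p under 0.05, with a median difference of 0.19 against -0.03 for all symbols, of which 23.2% were called. This class median depended on single ligated arrays, at 0.56 without replicate 1 and -0.11 without replicate 3, and centring each array on its median turned it to -0.01. Mki67 illustrates the spread. Its ligated arrays stood at 4.61, 5.57 and 6.55, so that replicate 1 lay below and replicate 3 above the sham arrays at 5.29, 5.49 and 5.07.

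Of the 15 other genes, 4 were called at 28 d, and 4 of the 29 in all. These shares are not far from the 23.2% of all symbols called, so the count is no result about the list. Ccne1, the gene of cyclin E1, rose by 0.84 (SE 0.27, limma adjusted p = 0.0287), with 6.04, 5.94 and 5.69 after ligation against 5.10, 5.30 and 4.77. Cdt1 rose by 0.57 (SE 0.20, adjusted p = 0.0429), from 5.12, 5.28 and 5.39 to 6.22, 5.65 and 5.62. Mcm6 rose by 0.87 (SE 0.31, adjusted p = 0.0446), from 5.24, 4.72 and 5.46 to 5.66, 5.79 and 6.60. The groups did not overlap for any of the 3. Rrm2 fell by 0.76 (SE 0.25, adjusted p = 0.0302), from 6.31, 6.54 and 6.25 to 5.25, 5.40 and 6.17. Across the alternatives tried, 0 to 4 genes were called. There was none without sham replicate 1, 1 without sham replicate 2 or 3 and after quantile normalization or centring, and 2 without ligated replicate 1 or 2. The gene left after quantile normalization and after centring was Rrm2, so Ccne1, Cdt1 and Mcm6 were called in neither setting.

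**Figure D3:**
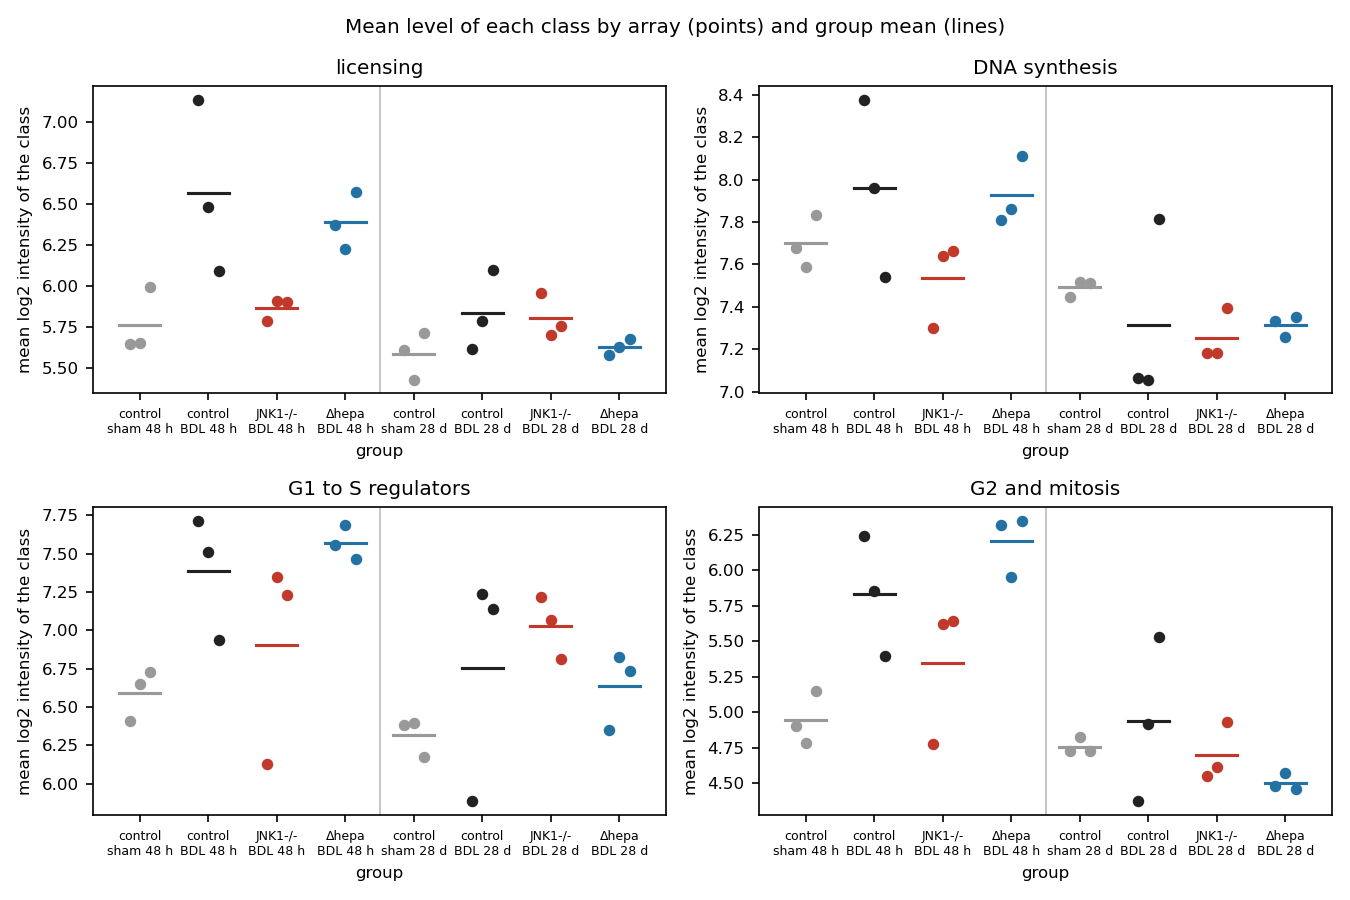
Each point is the mean log2 intensity of a class on 1 array, and each line the mean of 3 arrays, with Δhepa for JNK1Δhepa. The panels hold 9 licensing genes, 3 DNA synthesis genes, 3 G1 to S regulators and 14 genes of G2 and mitosis. Replicate 3 of control liver ligated for 28 d stands at 5.53 for G2 and mitosis and the other arrays of that group at 4.38 and 4.92.

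The 28 d array with the highest mitotic level also had the highest bile duct and stellate cell marker signal. Mean marker levels on ligated replicates 1, 2 and 3 were 5.50, 5.69 and 7.63 for bile duct and 6.80, 7.55 and 9.18 for stellate cells and myofibroblasts, while the mean of the G2 and mitosis genes was 4.38, 4.92 and 5.53. The part of these cells in the mitotic values was not tested. Ccnd1 stood at 6.86, 10.09 and 9.82 on these arrays, against 8.37, 8.10 and 8.05 after sham, and was not called (0.75, SE 0.64).

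Among further cycle genes at 28 d, 3 of 7 CDK inhibitors rose, where 11.7% of all symbols did: Cdkn1a (p21) by 1.44, Cdkn1b (p27) by 0.38 and Cdkn2c (p18) by 0.58. The others, Cdkn1c, Cdkn2a, Cdkn2b and Cdkn2d, lay between -0.15 and 0.16 and were not called. Cdkn1a stood at 10.62, 9.33 and 9.57 after ligation and 7.57, 9.15 and 8.48 after sham. Mcm10 fell by 2.43 (SE 0.26, limma adjusted p = 2.02e-06), E2f8, a repressor of E2F targets, by 2.44 (SE 0.33, adjusted p = 2.53e-05) and Ccnf, the gene of cyclin F, by 1.42 (SE 0.24). Mcm10 thus fell in both comparisons with sham, in which Mcm6 was called higher in the main fit. Of the 27 genes of the mitotic apparatus 1 rose (Anln, 1.13) and 1 fell (Spc25, by 0.75), and Wee1 rose by 1.42.

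The change of the ligation effect from 48 h to 28 d was tested directly as an interaction. No gene of the 29 was called by limma, where 1.3% of all symbols were, and 8 had an unadjusted p under 0.05. Of the 29 estimates 26 were negative, with a median of -0.62 (-0.40 without control replicate 1 ligated for 28 d, -0.38 without that ligated for 48 h), and the smallest p belonged to Kif11 (-1.16, SE 0.38, adjusted p = 0.148). Without replicate 3 of control liver ligated for 28 d, 2 were called, and among all symbols 311 were then called higher and 301 lower. Sham liver at 28 d and the arrays labelled control sham 48 h gave no call either among the 29 (0.133% of symbols called, 0 of 29 at an unadjusted limma p under 0.05), although 28 of 29 estimates were negative, with a median of -0.18 (-0.09 when replicate 3 of the earlier sham group was left out).

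Ligated control liver at 28 d and at 48 h was also set side by side, without the sham arrays. Of the 29 genes 12 were lower at 28 d, where 5.31% of all symbols were: 8 of G2 and mitosis, 3 licensing genes and Rrm2. Kif11 fell by 1.24 (SE 0.27, limma adjusted p = 0.00672), from 6.26, 5.86 and 5.49 to 4.12, 4.60 and 5.17. Cdc6 fell by 0.91 (SE 0.20), from 4.96, 4.24 and 4.32 to 3.21, 3.79 and 3.80. Mki67 fell by 1.49 and Top2a by 1.45, but their groups overlapped through replicate 3 at 28 d. In 5 of the 12 genes the groups did not overlap, namely Kif11, Cdc6, Aurkb, Bub1b and Aurka. The share of all symbols without overlap was not taken. Without ligated 48 h replicate 1 a single gene was called, without 48 h replicate 2 there were 6, and without 28 d replicate 1 there were 2. Without replicate 3 at either time there were 21, and a fit of these 2 groups alone called 0.

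Among licensing genes, JNK1-/- liver at 48 h stood below control after ligation. All 9 estimates were negative, with a median of -0.71, where the median of all symbols was 0.00. At an unadjusted limma p under 0.05 there were 8 of 9, with no share of all symbols set beside them. Mcm7 alone was called (1.11% of symbols called lower). It fell by 0.60 (SE 0.16, adjusted p = 0.0497), with 7.20, 7.41 and 7.33 in JNK1-/- against 8.28, 7.94 and 7.51 in control, which did not overlap. That call was lost under quantile normalization, median centring, the trend and robust prior, the replicate block, a fit of these groups alone, and without any single array of these groups except control replicate 3. Without that control array 4 of the 29 genes were called. The licensing median was -0.45 without control replicate 1.

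Mcm6 had 5.84, 5.91 and 5.58 in JNK1-/- and 7.70, 6.65 and 6.24 in control liver, again apart, and its difference was -1.09 (SE 0.31, limma adjusted p = 0.0675). For Mcm4 the values were 5.96, 6.40 and 6.42 against 7.74, 7.01 and 6.58 (-0.85, SE 0.23, adjusted p = 0.0554). In Cdc6 they were 3.96, 3.62 and 3.81 against 4.96, 4.24 and 4.32 (-0.71, SE 0.20, adjusted p = 0.0731). In 5 of the 9 licensing genes the groups did not overlap, and the share of all symbols without overlap was not taken. The JNK1-/- values of Mcm6 lay within the range of the arrays labelled control sham 48 h, 5.38 to 5.95. Other licensing genes differed in this. Means in JNK1-/- and on those sham arrays were 5.82 and 5.29 for Cdt1, and 7.31 and 7.58 for Mcm7. JNK1-/- liver was not tested against sham.

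Mitotic genes in JNK1-/- liver at 48 h split by array. Of the 14, 0 were called by limma and 6 had an unadjusted p under 0.05, with a median difference of -0.47. It was -0.24 without control replicate 1 and -0.29 without JNK1-/- replicate 1. Mki67 had 5.32 in replicate 1 and 7.10 and 6.91 in the others, against 7.38, 7.27 and 6.54 in control liver. Top2a showed the same order, with 4.51, 5.83 and 5.84 against 6.64, 6.44 and 5.87. Replicate 1 was thus within the sham range for Mki67 and just below it for Top2a, while replicates 2 and 3 overlapped or came close to the ligated controls. Ccnd1 had 7.41 in that replicate and 9.73 and 9.14 in the others. Neutrophil markers averaged 7.17 in replicate 1 and 6.82 and 6.37 in the others, and their part was not tested.

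**Figure D4:**
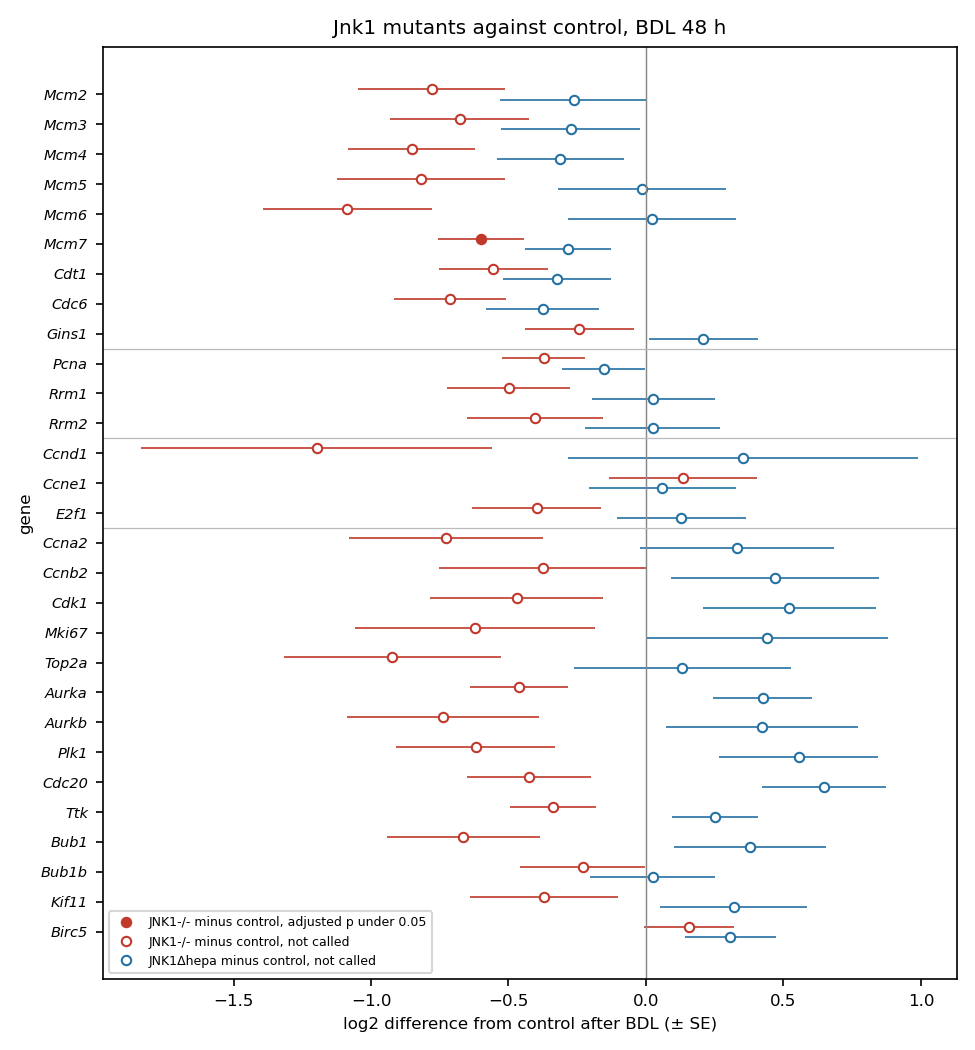
Points give the log2 difference of JNK1-/- (red) and JNK1Δhepa (blue) from control liver at 48 h after ligation, with bars for the SE and 3 arrays in each group. Filled points are called. Only Mcm7 in JNK1-/- is filled. The red points of the 9 licensing genes all lie left of 0, and the blue points of the 14 genes of G2 and mitosis all lie right of 0. Both sets of points use the same 3 control arrays.

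Between JNK1Δhepa and control liver at 48 h, none of the 29 genes was called by limma. No symbol at all was called in this comparison (0% of symbols), 607 of the 18820 had an unadjusted p under 0.05, and of the 29 these were Cdc20 and Aurka. Estimates of the 14 genes of G2 and mitosis were all positive, with a median of 0.40, while 7 of the 9 licensing genes were negative, with a median of -0.27. Without control replicate 1 the median was 0.00 for licensing and 0.61 for G2 and mitosis. Without control replicate 3 the medians were -0.48 and 0.18. Neutrophil markers had a median difference of -0.98, with all 6 estimates negative, 5 of them at an unadjusted limma p under 0.05 and none called. Bile duct markers had a median of -0.51, with all 7 estimates negative and none called, and the part of either was not tested. Cdc20, an activator of the complex that ends metaphase, had 5.95, 5.66 and 5.92 against 5.72, 5.12 and 4.74 in control (0.65, SE 0.23, adjusted p = 0.9995). Its groups overlapped at control replicate 1. Ccnd1 was even across the JNK1Δhepa arrays, at 10.31, 10.37 and 10.26.

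The mutants were also compared with each other at 48 h, a contrast that uses no control array. Aurka, Cdc20, Plk1 and Ttk were lower in JNK1-/- than in JNK1Δhepa liver, where 1.24% of all symbols were, and the median over the 14 genes of G2 and mitosis was -1.02 (-0.63 without JNK1-/- replicate 1). For Aurka, the kinase of the spindle poles, the values were 4.68, 5.07 and 5.15 against 6.00, 5.80 and 5.76, a difference of -0.89 (SE 0.18, limma adjusted p = 0.0115). Cdc20 had 4.46, 4.66 and 5.20 against 5.95, 5.66 and 5.92 (-1.07, SE 0.23, adjusted p = 0.0154). Plk1 had 4.79, 5.47 and 5.81 against 6.67, 6.31 and 6.61 (-1.18, SE 0.29, adjusted p = 0.0344). Ttk, a checkpoint kinase, had 3.39, 3.53 and 3.34 against 3.88, 3.91 and 4.23 (-0.59, SE 0.16, adjusted p = 0.0499).

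In all 4 genes every JNK1-/- array lay below every JNK1Δhepa array, and the same held for 23 of the 29 genes. The share of all symbols without overlap was not taken, so that count has no background. Of all symbols, 2.44% were called in either direction. No licensing gene was called, 4 of 9 had an unadjusted limma p under 0.05, and Mcm6 came closest (-1.11, SE 0.31, adjusted p = 0.0597). Mcm6 was called lower in 2 alternatives, the replicate block and the fit of these 2 groups alone. Without JNK1-/- replicate 1 or JNK1Δhepa replicate 1 none of the 29 was called. Without JNK1-/- replicate 2 or JNK1Δhepa replicate 3 there was 1, and the fit of these 2 groups alone called 2. Neutrophil markers were higher in JNK1-/- on every array, with means of 6.37 to 7.17 against 5.15 to 5.64, and 1 of 6 was called. Stellate markers had a median of -0.60 and none was called. Their part was not tested. Among other cycle genes E2f8 (-1.47), Cks2 (-0.46), the kinetochore gene Spc24 (-0.93) and Lig1 (-0.71) were called lower.

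Licensing and mitotic levels did not keep the same ratio in all groups. The mean log2 intensity of the 14 mitotic genes minus that of the 9 licensing genes was taken on each array. Its zero has no meaning, because probes differ in brightness. Its change between arrays can depend on brightness too, because dim genes respond less to a change in RNA. Ttk and Bub1 among the mitotic genes and Cdc6 in licensing are such genes. It was -0.87 to -0.74 on the arrays labelled control sham 48 h and -0.89, -0.63 and -0.69 in control liver ligated for 48 h, so the class means differed from sham by like amounts there. In JNK1Δhepa at 48 h it was -0.06, -0.27 and -0.23, above every control array at that time. In JNK1-/- it was -1.01, -0.29 and -0.26, with replicate 1 below and the others above the controls. At 28 d it was -1.22 to -1.06 in JNK1Δhepa, -1.41 to -0.83 in JNK1-/- and -1.24 to -0.57 in ligated control, which overlap. These are descriptions of the classes, without a test.

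**Figure D5:**
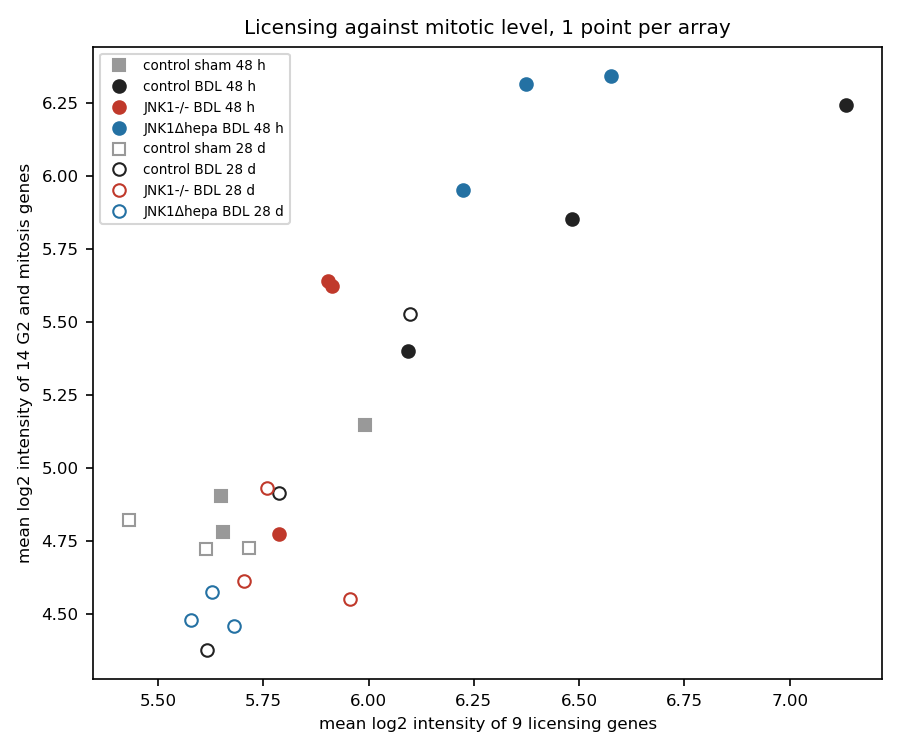
Each point is an array, with the mean log2 intensity of 9 licensing genes on the horizontal and of 14 genes of G2 and mitosis on the vertical axis. Squares are sham and circles ligated livers, filled at 48 h and open at 28 d. The JNK1Δhepa arrays at 48 h lie above the control arrays of like licensing level, and JNK1-/- replicates 2 and 3 have mitotic means of 5.62 and 5.64 at licensing means of 5.91 and 5.90.

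At 28 d neither mutant had a called gene among the 29 relative to ligated control. For JNK1-/- 0.627% of all symbols were called, and 0 of 29 genes had an unadjusted limma p under 0.05. For JNK1Δhepa the share was 0.228%, and 3 of 29 had such a p. Mitotic medians were -0.27 in JNK1-/- and -0.42 in JNK1Δhepa. Both moved with single control arrays, to -0.69 and -0.81 without control replicate 1 and to 0.07 and -0.17 without control replicate 3. In JNK1Δhepa all 10 stellate markers had negative estimates (median -1.10, 5 at an unadjusted limma p under 0.05), as did all 7 bile duct markers (median -0.57) and 11 of 12 macrophage markers (median -0.46). The 6 neutrophil markers, all negative too, had a median of -0.69. In JNK1-/- the medians were -0.42 for stellate, -0.42 for bile duct, -0.25 for macrophage and -0.32 for neutrophil markers. None was called in either mutant, and their part was not tested. Bub1 in JNK1Δhepa stood at 3.06, 3.22 and 2.83 against 3.06, 3.56 and 4.40 in control (-0.64, SE 0.28, adjusted p = 0.284). Its values overlapped at control replicate 1. Without that control array 5 of the 29 genes were called lower, but among all symbols 913 were then called higher and 1072 lower. Ccnd1 had 10.10, 9.76 and 9.53 in JNK1-/- and 7.63, 9.08 and 9.14 in JNK1Δhepa, which did not overlap. In the direct comparison of the mutants at 28 d that difference was 1.18 (SE 0.64, adjusted p = 0.358), none of the 29 was called (0.962% of symbols), and 2 had an unadjusted limma p under 0.05.

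From 48 h to 28 d after ligation, most of the list fell in JNK1Δhepa liver. Of the 29 genes 22 were lower at 28 d, where 8.67% of all symbols were: 13 of 14 in G2 and mitosis, 6 of 9 in licensing, Rrm1, Rrm2 and E2f1. The groups did not overlap for 25 of the 29, a count for which the share of all symbols was not taken. Mki67 went from 7.56, 7.27 and 7.69 to 4.63, 4.73 and 4.95, a fall by 2.74 (SE 0.44) or 6.68-fold, with a limma adjusted p of 0.000413. Bub1 had the smallest p. It went from 5.20, 4.57 and 5.40 to 3.06, 3.22 and 2.83 (-2.02, SE 0.28, adjusted p = 0.000131). Cdk1 went from 7.59, 7.14 and 7.59 to 5.08, 5.75 and 5.37 (-2.04, SE 0.32).

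The class median between these times was -0.91 for licensing and -1.98 for G2 and mitosis. Mcm5 fell by 1.66 (SE 0.30), from 6.94, 6.72 and 7.22 to 5.19, 5.35 and 5.35. Cdt1 had 5.90, 6.00 and 6.26 at 48 h and 5.84, 6.29 and 6.36 at 28 d, a difference of 0.11 and the only positive one among the 29. E2f1, an E2F activator, fell by 1.02 (SE 0.24) and Birc5 had -0.32. Without the JNK1Δhepa array that carried Mapk8 at the control level 17 genes were called, and without any other single array 16 to 21. Of the 27 genes of the mitotic apparatus 24 fell, as did 10 of 15 further cyclins, CDKs and regulators. Endothelial markers fell in 3 of 7 genes between the same groups and neutrophil markers in 0 of 6. Markers of other lists moved in both directions. Among bile duct markers the mean of Sox9 went from 8.93 to 7.56 and that of Cldn4 from 4.87 to 5.78. Among erythroid markers the mean of Alas2 went from 8.97 to 7.76 and that of Klf1 from 4.8 to 6.3. The part of these cells was not tested.

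In JNK1-/- liver the same comparison of times called none of the 29 by limma, where 0.898% of all symbols were lower, and 10 had an unadjusted p under 0.05. Mki67 went from 5.32, 7.10 and 6.91 to 5.02, 4.74 and 5.69 (-1.29, SE 0.44, adjusted p = 0.119). Without 48 h replicate 1, the array with low mitotic levels, 6 genes were called. The licensing median was -0.07. Whether the mutants changed with time unlike control liver was tested as an interaction with the ligated control arrays. None of the 29 was called in either mutant (0.744% of symbols in JNK1-/- and 0% in JNK1Δhepa), with 7 and 6 at an unadjusted limma p under 0.05. The largest of these estimates were 2.07 (SE 0.90) for Ccnd1 in JNK1-/- and -1.22 (SE 0.45) for Cdk1 in JNK1Δhepa, with adjusted p of 0.279 and 0.634.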

How the data were processed

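Liver RNA was measured on 24 arrays, 1 per sample, grouped by the labels. The authors deposited log2 intensities for each probe set, computed by RMA per the submitters' processing notes. RMA settings and the genome build were not stated in the sources used. Of 35556 probe sets, 21218 had 1 symbol, 1881 several and 12457 none. The brightest probe set with 1 symbol stood for each of 18820 symbols. One limma fit (version 3.58.1, R 4.3.3, the package data.table at 1.17.8) gave 8 group means over 24 arrays, with 16 residual and 3.55 prior degrees of freedom. P-values were adjusted by Benjamini and Hochberg in each of 15 comparisons. The number of arrays limits precision (median SE of a difference 0.129). The labels name replicates by number only, so p-values measure the spread between these samples, which may be technical. The script was tested on simulated data. No pair of arrays was identical.

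The members and all lists were chosen with earlier results of these data known. Named genes were the members, with values by array for called ones and for the largest and smallest difference of a class, and up to 4 genes per other list by p. Same-numbered arrays deviated together in 1 comparison, JNK1Δhepa against control at 28 d (correlations 0.501, 0.244 and 0.161).

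Alternatives were quantile normalization, median centring, the mean of probe sets, leaving out the dimmest 25% (mean log2 under 3.89), a trend and robust prior, a replicate block, a fit of the compared groups alone, other sham arrays, and leaving out each array.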

Additional observations from a re-analysis of the deposited data

Results flagged for a closer look

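Between the mutant genotypes 4 genes of the list were called, all lower in JNK1-/- liver, where 1.24% of all symbols were called lower. These calls rested on single arrays. Without JNK1-/- replicate 1 or JNK1Δhepa replicate 1, 0 genes of the list were called, and without JNK1-/- replicate 2 or JNK1Δhepa replicate 3, 1 was. At 48 h after ligation, the test of JNK1-/- against JNK1Δhepa liver with limma gave Aurka -0.885 (adjusted p = 0.01154), Cdc20 -1.074 (adjusted p = 0.01542), Plk1 -1.175 (adjusted p = 0.03438) and Ttk -0.591 (adjusted p = 0.04993). All 4 act in mitosis, and all 3 JNK1-/- arrays were lower than all 3 JNK1Δhepa arrays in each. Only Ttk lies in the dimmest 25% of symbols among them.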

How the results depend on the processing

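No single called gene reversed its direction under any alternative: 583 gene values kept their call and 179 lost it. The comparisons differed in this. With single arrays left out, JNK1Δhepa over time kept 112 and lost 20, and control over time kept 41 and lost 31. Ligation kept 37 and lost 47 at 48 h, and kept 8 and lost 16 at 28 d. At 48 h, JNK1-/- against control kept 1 and lost 5, and JNK1-/- against JNK1Δhepa kept 7 and lost 17. Counts of called genes moved as follows. Ligation against sham at 48 h (14) became 22 with the 28 d sham arrays, from older mice, and 22 with both sham groups. At 28 d (4) it became 1 under quantile normalization, 1 under centring and 1 with the compared groups alone. The interaction of ligation and time (0) became 12 with the 28 d sham for both times, which by construction is the comparison of ligated livers over time, and that comparison (12) became 0 with its groups alone. JNK1-/- against control at 48 h (1) became 0 under quantile normalization, centring, the trend and robust prior and the groups alone, and 2 without the dimmest 25%. JNK1-/- against JNK1Δhepa at 48 h (4) became 2 with these groups alone, 1 of them a licensing gene. JNK1-/- over time (0) became 1 under quantile normalization and 2 under centring. The cause of these moves was not tested.

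Leaving out single arrays gave 2 to 18 calls for ligation at 48 h, 0 to 3 at 28 d, 0 to 2 for their interaction, 1 to 21 for control over time, 0 to 4 for JNK1-/- and 0 for JNK1Δhepa against control at 48 h, 0 and 0 to 5 at 28 d, 0 to 3 between mutants at 48 h, 0 to 6 for JNK1-/- over time and 16 to 21 for JNK1Δhepa over time. Where 2 arrays remain in a group, they are assumed to vary like the other groups.

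With the replicate block, counts were 13 for ligation at 48 h, 3 at 28 d, 11 for control over time, 0 for JNK1-/- at 48 h, 4 between mutants at 48 h and 23 for JNK1Δhepa over time. The 4 between mutants were then 3 genes of G2 and mitosis and 1 licensing gene. The numbers pair arrays in 1 comparison, JNK1Δhepa against control at 28 d, where the block called 0 of the 29, as without it.

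Centring shifted the median of all symbols by -0.17 for ligation at 48 h and by -0.20 at 28 d. The mutants have no sham group, 3 arrays a group leave wide errors, and dim genes such as Bub1, Ttk and Cdc6 have little room above background.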

Other observations

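Cdkn1a, the p21 gene, stood apart between the sham groups, although it was not called. Its values were 10.69, 10.72 and 10.06 on the arrays labelled control sham 48 h and 7.57, 9.15 and 8.48 in sham liver at 28 d, without overlap (-2.09, SE 0.43, limma adjusted p = 0.0605). After ligation the control arrays lay at 9.55, 10.00 and 10.49 at 48 h, and the difference from the sham arrays of that time was -0.48 (SE 0.43).

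E2f8, which codes for a repressor of E2F targets, differed between genotypes at 48 h. Its values were 4.66, 4.74 and 4.38 in JNK1-/-, 6.28, 5.64 and 5.68 in control and 6.01, 5.70 and 6.48 in JNK1Δhepa liver after ligation. The difference between JNK1-/- and control was -1.27 (SE 0.33, limma adjusted p = 0.0443), where E2f8 was the only called gene among 13 E2F and pocket protein genes. At 28 d after ligation all 3 genotypes lay between 3.64 and 4.57.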
